A study of Homo sapiens with 7 samples.

Results

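The Kruppel-like factors described here are 10 genes, KLF2, KLF4, KLF5, KLF6, KLF7, KLF9, KLF10, KLF11, KLF13 and KLF16, out of 19775 genes read on the arrays. They were taken by name, as every probe set that the platform annotation assigns to 1 of these genes alone, which gave 30 of 54675 probe sets. HT1080 cells, an established human fibrosarcoma line, were profiled on 7 Affymetrix U133 Plus 2.0 arrays, 1 array for each culture. Of the cultures, 1 received pycnogenol-positive serum and 1 control serum, both at 5% for 2 h. A further 4 received a single compound for 2 h: catechin, whose dose was 11.25 ng/ml, epicatechin or taxifolin, each dosed with 6.25 ng/ml, or resveratrol, dosed with 2195 ng/ml. The last was untreated. Pycnogenol is an extract of pine bark that contains catechin, epicatechin and taxifolin, and the pycnogenol serum is the one labelled as positive for it. The pycnogenol serum and control serum arrays are called the serum arrays, and the compound and untreated arrays the 5 others. All cells came from stocks grown with 10% fetal bovine serum. The labels describe fresh medium before the additions and do not say separately how the untreated culture was handled. No group had a second array, so the differences below carry neither a replicate error nor a test, and each describes a pair of single arrays.

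Kruppel-like factors bind GC-rich and CACCC-type DNA elements through zinc fingers at their C-terminal end. KLF2, KLF4, KLF5, KLF6 and KLF7 belong to the branch known mainly for activating transcription, whereas KLF9, KLF10, KLF11, KLF13 and KLF16 carry a domain that recruits the SIN3A corepressor. Several of them are early-response genes whose transcripts turn over quickly: KLF2 and KLF4 through the kinase ERK5 and MEF2 factors, KLF10 and KLF11 through TGF-beta, and KLF9 through the glucocorticoid receptor.

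The results turn on KLF4 and KLF9, and KLF2 is a close relative of KLF4. Their RefSeq promoters are therefore shown as the 250 bases before the annotated start, 5′ to 3′ on the strand of the gene in build GRCh38.p14. KLF4 lies at chr9:107489770-107490019 on the minus strand, KLF9 at chr9:70414658-70414907 on the minus strand and KLF2 at chr19:16324576-16324825 on the plus strand. Capitals mark the matches to 8 motifs searched on both strands, described after the sequences.
KLF4: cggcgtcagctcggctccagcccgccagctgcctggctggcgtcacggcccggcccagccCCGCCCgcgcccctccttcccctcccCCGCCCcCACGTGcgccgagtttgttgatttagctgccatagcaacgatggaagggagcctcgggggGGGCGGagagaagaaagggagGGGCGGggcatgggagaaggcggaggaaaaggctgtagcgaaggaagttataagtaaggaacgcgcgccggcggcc
KLF9: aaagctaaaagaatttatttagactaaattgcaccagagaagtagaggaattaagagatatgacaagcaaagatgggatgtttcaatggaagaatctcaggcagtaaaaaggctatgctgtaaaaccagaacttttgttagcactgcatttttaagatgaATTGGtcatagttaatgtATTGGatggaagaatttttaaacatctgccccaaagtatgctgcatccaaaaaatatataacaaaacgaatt
KLF2: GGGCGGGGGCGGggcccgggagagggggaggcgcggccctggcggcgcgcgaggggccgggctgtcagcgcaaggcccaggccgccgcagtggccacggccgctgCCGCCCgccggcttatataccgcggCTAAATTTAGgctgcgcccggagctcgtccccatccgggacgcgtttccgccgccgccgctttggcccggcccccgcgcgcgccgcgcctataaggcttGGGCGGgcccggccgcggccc

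The motifs were the GC box GGGCGG that binds SP and KLF proteins, the CACCC box, the E-box CACGTG, the glucocorticoid half-site AGAACA, the CCAAT box, the cyclic AMP element TGACGTCA, and the CArG and MEF2 elements, which are given by name. In the KLF4 window there were 4 GC boxes and an E-box that starts 157 bases before the gene's start, with 1 base between it and a GC box. The KLF2 window held 4 GC boxes and, 120 bases before the start, a MEF2 match. In the KLF9 window no GC box was found and the 2 matches were to the CCAAT box. Its GC content was 32.4%, against 69.2% for KLF4, 80% for KLF2 and a median of 58% over all 35116 windows. No marked motifs overlapped in these windows. Over all windows of this length 42.6% held a GC box, 54.7% a CACCC box, 6.34% an E-box, 12.4% the glucocorticoid half-site, 32.0% a CCAAT box, 1.65% the cyclic AMP element, 1.16% a CArG match and 2.80% a MEF2 match. KLF4 and KLF9 thus had no motif in common among those searched in these windows. Of the windows not shown, a KLF11 window held GC boxes and an E-box, as that of KLF4 did, and so did the KLF6 window. KLF11 was low on both serum arrays, as described below, and KLF6 was not. Any link between motifs and signals was not tested. A match is a description of letters, and binding was not measured.

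Signals are MAS5 values on a linear scale, as the authors deposited them. Each gene was read from its brightest probe set by mean log2 signal over the arrays, and all 10 members had a mean at or above the signal filter of 269, the median over genes, as did 17 of their 30 probe sets. Differences are log2 signal on the first array named minus that on the other, and counts of genes higher or lower use a threshold of 2-fold among the 9888 genes that passed the filter. Of 8 fibroblast and sarcoma markers, 7 passed the filter, VIM, FN1, COL4A1, COL4A2, CDH2, TWIST1 and MMP14, while S100A4 did not. From the lists for other cell types, KRT8 of 6 epithelial markers, TIE1 of 5 endothelial markers, HBB and CD79A of 6 annotated blood markers and 0 of 3 platelet markers passed. The 3′ to 5′ signal ratio of ACTB was 2.82 with pycnogenol serum and 2.55 with control serum, inside the 2.40 to 4.02 of the other 5 arrays. That of GAPDH was 1.09 with pycnogenol serum and 1.06 with control serum, against 0.961 to 1.12 on the other 5.

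With pycnogenol serum set against control serum, KLF9 was 2.87-fold lower and KLF4 2.51-fold lower, and no member was higher by 2-fold. Those 2 of 10 members stand beside 0.536% of all genes past 2-fold in either direction and 0.314% lower by 2-fold. The members were chosen with earlier results of these data known, so the shares here and below are a backdrop and not a test of the family. KLF3 and KLF12, which passed the filter but are not among the 10, were at -0.25 and -0.061. The other 8 members lay between -0.38 for KLF2 and 0.11 for KLF16. The members' median difference was -0.086 where the median of all genes was 0.0083, with 5 members below 0 and 48.4% of all genes below 0. Both calls depend on the probe sets read, as the members' own accounts give.

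KLF4 encodes a factor that holds back proliferation in epithelia and takes part in reprogramming to pluripotency. Its probe set 221841_s_at read 652 with pycnogenol serum, 1640 with control serum, 2724 with catechin, 3383 with epicatechin, 2864 with taxifolin, 2249 with resveratrol and 2969 in the untreated culture. Both serum arrays lay below all 5 others, and the pycnogenol serum array was far below the control serum array. The difference was -1.33 between the serum arrays, and only 12 of 9888 genes had one that low or lower, KLF4 included. Against the untreated array it was -2.19 for pycnogenol serum and -0.86 for control serum. Among the 5 others, KLF4 differed by at most 0.59 in any of 10 pairs, a spread over 5 different cultures and not over replicates. The other KLF4 probe set, 220266_s_at, read 112 with pycnogenol serum and 74.7 with control serum, below the filter, for a difference of 0.58. Averaged over both probe sets, the difference between the serum arrays was -0.37, short of 2-fold.

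KLF9 encodes a SIN3-binding repressor that glucocorticoid and thyroid hormones induce. On probe set 203543_s_at it read 436 with pycnogenol serum, 1251 with control serum, 1407 with catechin, 2037 with epicatechin, 1796 with taxifolin, 1591 with resveratrol and 1796 in the untreated culture. As for KLF4, both serum arrays lay below the other 5 and the lowest was pycnogenol serum, although control serum came close to catechin. The difference between the serum arrays was -1.52, and 7 of 9888 genes, KLF9 included, lay that low or lower. From the untreated array it differed by -2.04 for pycnogenol serum and -0.52 for control serum. A second probe set above the filter, 203542_s_at, gave 698 with pycnogenol serum, 861 with control serum and 895 to 1169 on the other 5 arrays. It kept the order of the arrays at their low end, but its difference between the serum arrays was -0.30 and its difference of pycnogenol serum from untreated -0.74, so neither reached 2-fold. The mean over all 5 KLF9 probe sets, of which 3 were below the filter, gave -0.33 between the serum arrays. All KLF4 and KLF9 probe sets carry the suffix _s_at, which Affymetrix gives to sets that match more than 1 transcript, so neither gene could be read without them.

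**Figure D1:**
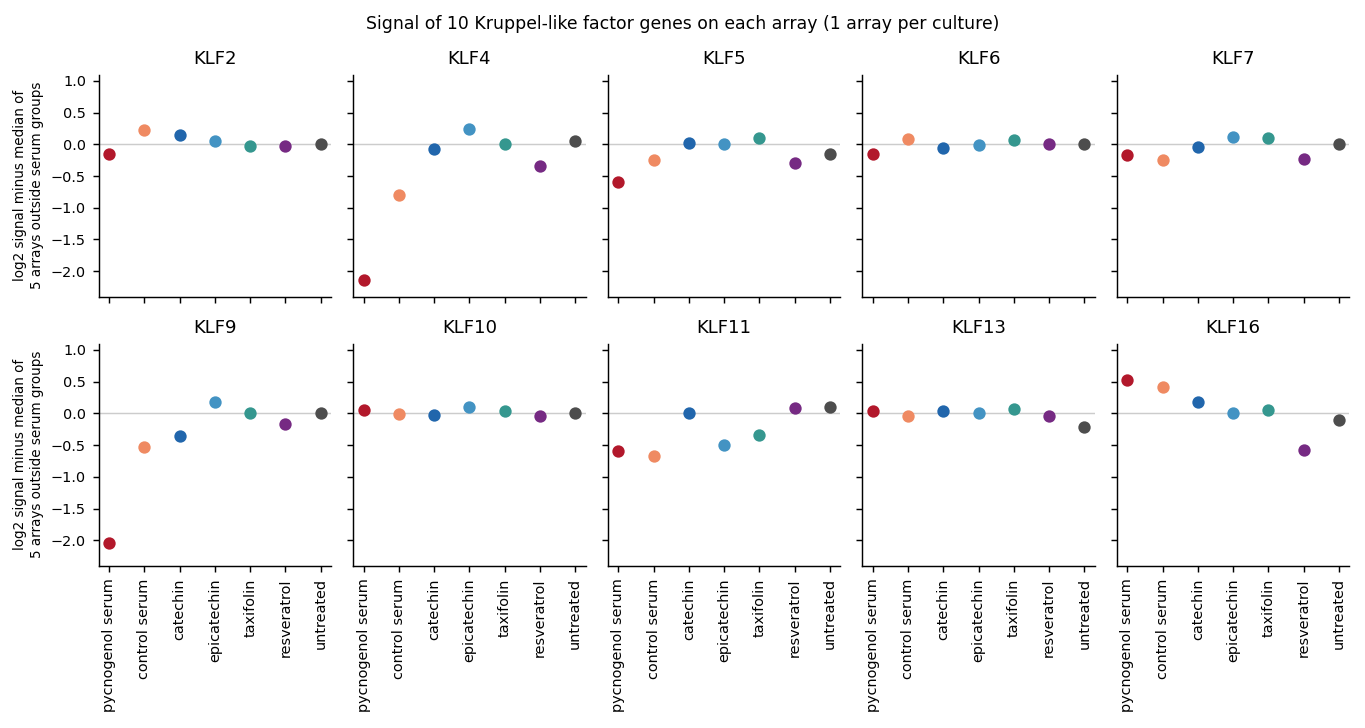
Each panel shows 1 gene, with the log2 signal of its brightest probe set on each of the 7 arrays minus the median of the 5 arrays outside the serum groups; every point is 1 array. KLF4 and KLF9 drop on the pycnogenol serum array, KLF11 is low and KLF16 high on both serum arrays, and KLF6, KLF10 and KLF13 stay within a narrow band.

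Control serum set against the untreated culture gave no member past 2-fold, where 1.2% of all genes were. KLF4 at -0.86 and KLF11 at -0.77 were the lowest members and KLF16 at 0.51 the highest. The members' median was -0.049, against 0.0076 for all genes, with 4 members above and 6 below 0, beside 51.3% and 48.7% of all genes. At a threshold of 1.5-fold KLF4 and KLF11 were counted. Of all genes 1.52% lay as low as KLF4 or lower and 2.27% as low as KLF11 or lower, and the share past 1.5-fold was not computed. For pycnogenol serum against the untreated culture, KLF4 was 4.55-fold lower and KLF9 4.12-fold lower, 2 of 10 members, while 2.24% of all genes passed 2-fold in either direction and 1.51% were lower by 2-fold. This comparison and the one between the serum arrays share the pycnogenol serum array, so they do not count as separate support.

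Set against the 5 arrays outside the serum groups, 3 members, KLF4, KLF9 and KLF11, lay lower on both serum arrays than on any of the 5, which held for 16.1% of all genes. Only KLF16 lay higher on both, as 13.5% of all genes did. The remaining 6 members overlapped, and so did the dimmer probe sets of KLF11 and KLF16, both below the filter. The 7 arrays are different treatments and not replicates, so the split is a description.

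**Figure D2:**
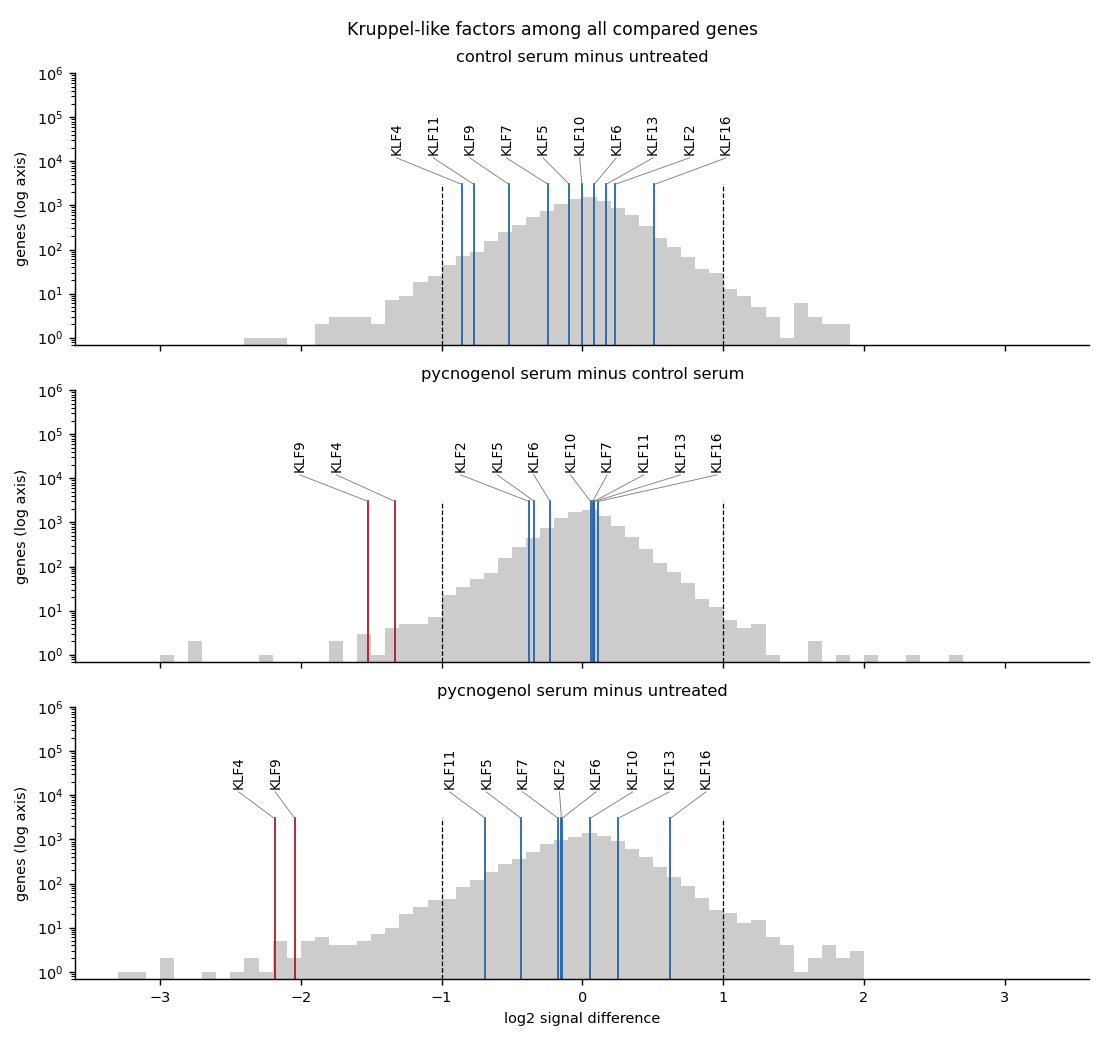
Grey bars count the 9888 compared genes by log2 signal difference, on a log axis, in 3 comparisons; vertical lines mark the 10 Kruppel-like factors, red where they pass 2-fold (dashed lines). KLF4 and KLF9 lie in the low tail when pycnogenol serum is on the first array, and all members lie inside 2-fold for control serum against untreated.

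The other members of the activating branch differed less. KLF2, which keeps endothelial cells and lymphocytes quiescent, read 4025 with pycnogenol serum, 5234 with control serum, 4954 with catechin, 4610 with epicatechin, 4374 with taxifolin, 4373 with resveratrol and 4462 in the untreated culture. The highest and the lowest of these arrays were the serum arrays, and they differed by -0.38. Only 7.15% of all genes were that low or lower in the comparison. Its second probe set, 226646_at, lay below the filter and gave 0.15.

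KLF5, a factor that promotes proliferation of epithelial and smooth muscle cells, read 815 with pycnogenol serum, 1031 with control serum, 1240 with catechin, 1225 with epicatechin, 1320 with taxifolin, 1003 with resveratrol and 1101 in the untreated culture on probe set 209211_at. Pycnogenol serum was lowest, and control serum lay within the other arrays' range. The difference was -0.34 between the serum arrays. The dimmer set 209212_s_at, under the filter, read 101 with pycnogenol serum and 258 with control serum, a difference of -1.35.

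KLF6, a broadly expressed injury-response factor also described as a tumour suppressor, ran from 12201 with pycnogenol serum to 14308 with control serum, with the other 5 arrays between them. Its 4 probe sets above the filter were all lower with pycnogenol serum than with control serum, by differences of -0.23, -0.081, -0.42 and -0.061, the brightest first. Those same sets were all higher with control serum than in the untreated culture, by 0.083, 0.037, 0.52 and 0.24. All 8 of these values were small beside 2-fold, and the 2 comparisons share the control serum array.

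KLF7, known in mice for its part in neuronal development, was the only member with over 1 probe set above the filter whose sets disagreed in sign between the serum arrays. Its brightest set, 204334_at, read 1974 with pycnogenol serum and 1878 with control serum, a difference of 0.072. The other 3 sets above the filter were lower with pycnogenol serum: 240432_x_at read 1129 against 1771 with control serum, 1555420_a_at 625 against 891, and 238482_at 451 against 699. Their differences were -0.65, -0.51 and -0.63, and averaging all 5 KLF7 sets gave -0.40. The direction for KLF7 between the serum arrays was therefore not settled by these values. Over the 10 members, 4 of the 7 further probe sets above the filter had the sign of the brightest set of their gene in this comparison, and all 3 exceptions were those of KLF7.

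**Figure D3:**
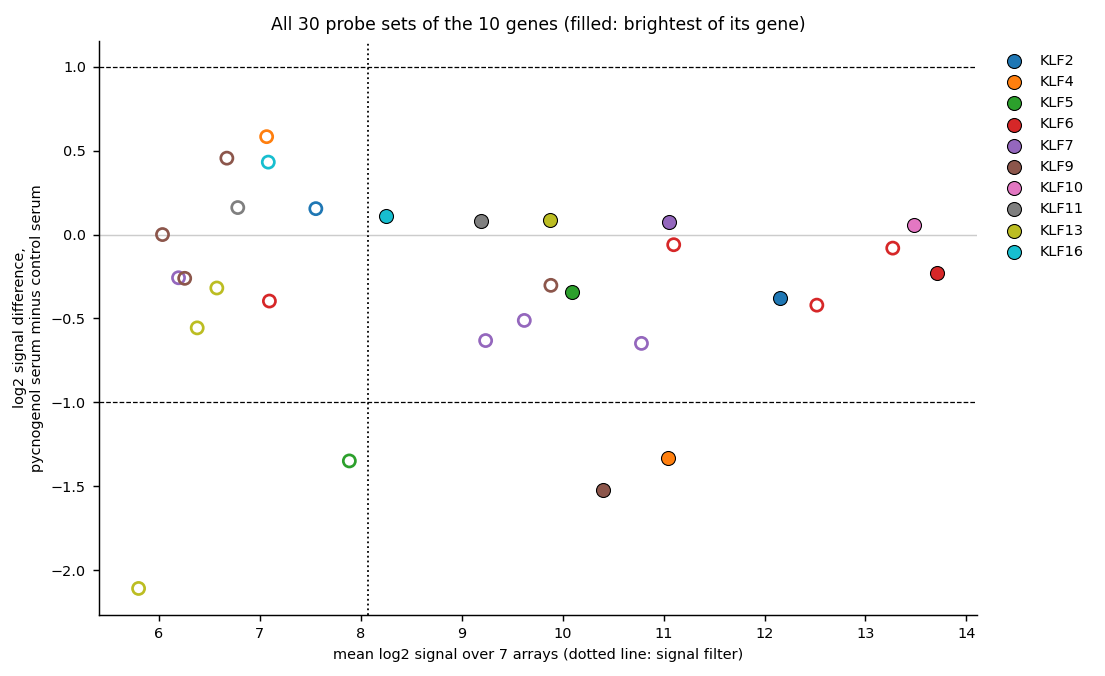
Each point is 1 of the 30 probe sets, with its mean log2 signal over the 7 arrays on the x axis and its log2 difference, pycnogenol serum minus control serum, on the y axis; filled points are the brightest set of each gene, the dotted line is the signal filter and dashed lines mark 2-fold. Of the 17 sets right of the filter, only the brightest KLF4 and KLF9 sets pass 2-fold, and the other bright KLF7 sets lie well below its brightest one.

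In the SIN3-binding branch, the TGF-beta inducible pair KLF10 and KLF11 differed from each other. KLF10, a mediator of growth arrest by TGF-beta, had a single probe set, which read 11716 with pycnogenol serum, 11260 with control serum and 10979 to 12164 on the other 5 arrays. It had the narrowest spread of the 10 members, an SD of 0.052 over the 7 arrays on the log2 scale, where the median SD of all genes was 0.17. KLF11, which represses transcription downstream of TGF-beta and takes part in beta-cell function, read 468 with pycnogenol serum, 443 with control serum, 703 with catechin, 501 with epicatechin, 557 with taxifolin, 745 with resveratrol and 755 in the untreated culture. The serum arrays were the lowest, but epicatechin and taxifolin were closer to them than to the untreated array. Against untreated, KLF11 lay at -0.69 for pycnogenol serum and at -0.77 for control serum. Its dimmer set 1553137_s_at, below the filter, read 127 with pycnogenol serum and 114 with control serum. The other 5 arrays ran from 62.7 with resveratrol to 161 in the untreated culture, so the serum arrays were not the lowest there. A list for TGF-beta signalling held 14 other genes above the filter, SMAD2 and SMAD4 among them, so not all are early-response genes. Of these 14, 5 were higher by 2-fold with control serum than in the untreated culture and none lower, beside 0.445% of all genes higher. The widest were ID2 at 1.78, PMEPA1 at 1.61 and ID3 at 1.53, while KLF10 lay at -0.0042.

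KLF13, which activates the chemokine gene CCL5 in T cells, read 983 with pycnogenol serum, 926 with control serum and 825 to 1002 on the other 5 arrays, and the lowest was untreated. KLF16, a repressor that binds GC-rich promoters, was dim, at 418 with pycnogenol serum, 387 with control serum, 329 with catechin, 291 with epicatechin, 300.4 with taxifolin, 194 with resveratrol and 271 in the untreated culture. The serum arrays were the highest and resveratrol the lowest, under the filter's 269. The difference from untreated was 0.62 for pycnogenol serum and 0.51 for control serum, and its second, dimmer probe set gave 0.35 for pycnogenol serum and -0.079 for control serum.

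With the compounds, no member lay 2-fold from the untreated array, and few genes of any kind did: 0.455% with catechin, 0.314% with epicatechin, 0.465% with taxifolin and 0.728% with resveratrol. A count of 0 of 10 is near these shares and is no result about the family. The members' median SD over the 5 arrays outside the serum groups was 0.15 on the log2 scale, beside 0.13 for all genes. Over the 40 differences from the untreated array the range was -0.59 to 0.28, and 1 of them passed 1.5-fold, KLF11 with epicatechin at -0.59. With epicatechin 1.28% of all genes lay that low or lower. The share of all genes past 1.5-fold was not computed, so this count is no result about the family. KLF11 lay below the untreated array with all 4 compounds, at -0.10 with catechin, -0.44 with taxifolin and -0.019 with resveratrol, and KLF13 lay above it with all 4, by 0.17 to 0.28. All 4 comparisons share the untreated array, which was the highest of the 5 for KLF11 and the lowest for KLF13. Set against the mean of the other arrays outside the serum groups, KLF11 was at 0.16 with catechin and 0.26 with resveratrol, and KLF13 at -0.018 with resveratrol. Under quantile normalization KLF11 with resveratrol was at 0.016, while KLF13 stayed above 0 with all 4 compounds under quantile normalization, pairwise loess and median centring. Those settings rescale the same KLF13 probe set, and its dimmer sets, all below the filter, were mixed. Set 219878_s_at lay at -0.79 with catechin, -1.55 with epicatechin, -0.22 with taxifolin and 0.61 with resveratrol. Set 1564463_at had the same signs, whereas 230094_at lay at 1.37 with catechin and 1.24 with taxifolin. Once probe sets were averaged, KLF13 was not among the members compared.

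KLF4 with the compounds lay at -0.12 for catechin, 0.19 for epicatechin, -0.052 for taxifolin and -0.40 for resveratrol. KLF9 lay at -0.35 with catechin, 0.18 with epicatechin and -0.17 with resveratrol, and read 1796 both with taxifolin and without treatment. KLF16 was at -0.48 with resveratrol and between 0.099 and 0.28 with the other 3 compounds. With resveratrol 8 members lay below 0, with a median of -0.087, and with epicatechin 8 lay above 0, with a median of 0.11. Over all genes 45.2% lay below 0 with resveratrol, with a median of 0.025, and 57.3% above 0 with epicatechin, with a median of 0.032.

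Epicatechin and taxifolin were given at the same 6.25 ng/ml for the same time, and they share a flavan skeleton that carries a ketone in taxifolin and none in epicatechin. This was the 1 pair of compounds at a matched dose. No member differed by 2-fold between them, where 0.324% of all genes did. The members ran from -0.15 for KLF11 to 0.24 for KLF4, epicatechin minus taxifolin, with a median of -0.016. With a single array each there is no interval for these differences, so they do not show that the compounds act alike. Catechin, the stereoisomer of epicatechin, was given at 11.25 ng/ml, so their values stand side by side above without a comparison.

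**Figure D4:**
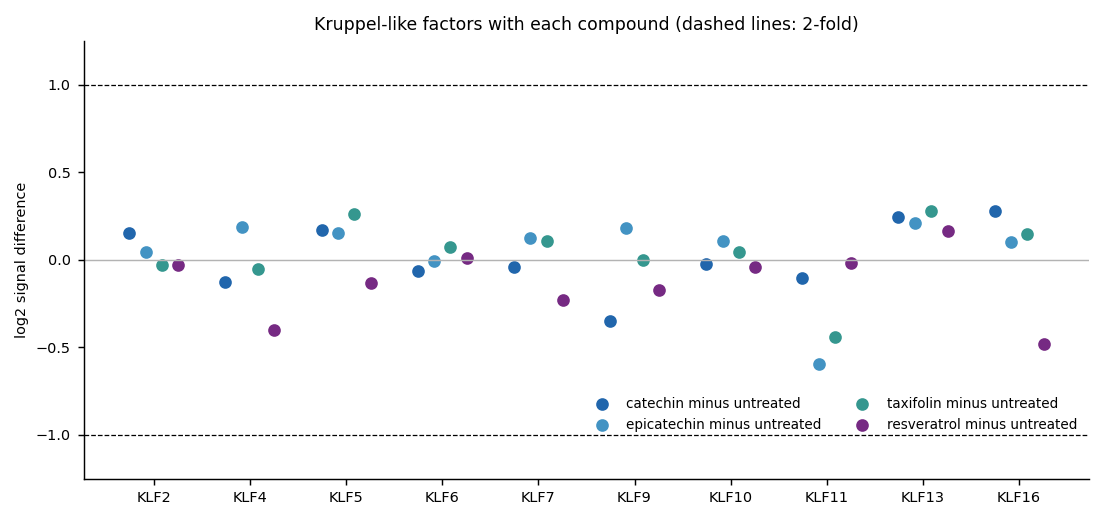
Points give the log2 signal difference of each compound's array from the untreated array for the 10 genes, 1 array each; dashed lines mark 2-fold. All points lie between -0.59 and 0.28, and those of KLF11 lie below 0 and those of KLF13 above 0 with all 4 compounds on the scale drawn, although KLF11 with resveratrol turns to 0.016 under quantile normalization.

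The array profiles of KLF4 and KLF9 were close to each other, each read from its brightest probe set. KLF9's other set above the filter, 203542_s_at, was not searched in this way and differed by only -0.30 between the serum arrays. The 3 members with the widest spread were KLF4, with an SD of 0.82 that ranked 22nd among the 9888 genes, KLF9 with 0.76, ranked 33rd, and KLF16 with 0.36. For each, the genes with the most similar profile were found by the root mean square difference of log2 signals over the 7 arrays, after subtracting each gene's own mean. Nearest to KLF4 were ARRDC1 at 0.15, DDIT3 at 0.16, TMCC3 at 0.17, KLF9 at 0.17 and INHBE at 0.19. ARRDC1, an arrestin-domain gene, read 132 with pycnogenol serum, under the signal filter of 269. DDIT3 encodes the stress-induced factor CHOP, and INHBE a subunit of the activin family. DDIT3 read 1026 with pycnogenol serum, 2052 with control serum and 2557 to 3881 on the other 5 arrays. The same order of groups was seen for KLF4, with the lowest of the 5 in both genes on the resveratrol array.

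Nearest to KLF9 were JMY at 0.12, an actin-nucleating cofactor of p53, then KLF4 at 0.17, TUBE1 at 0.19, epsilon-tubulin, VLDLR at 0.20, a lipoprotein receptor, and KDM7A at 0.20, a histone demethylase. Between the serum arrays JMY differed by -1.23, TUBE1 by -1.31, VLDLR by -0.997 and KDM7A by -1.51. KLF16 had as its nearest genes PPARGC1B at 0.11, a nuclear receptor coactivator, KRI1, ALG13, AKAP12, a kinase scaffold, and TAP1, the antigen peptide transporter, all within 0.13. These genes were chosen for the likeness, which rests on 7 arrays, and the same search without any 1 array was not run.

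**Figure D5:**
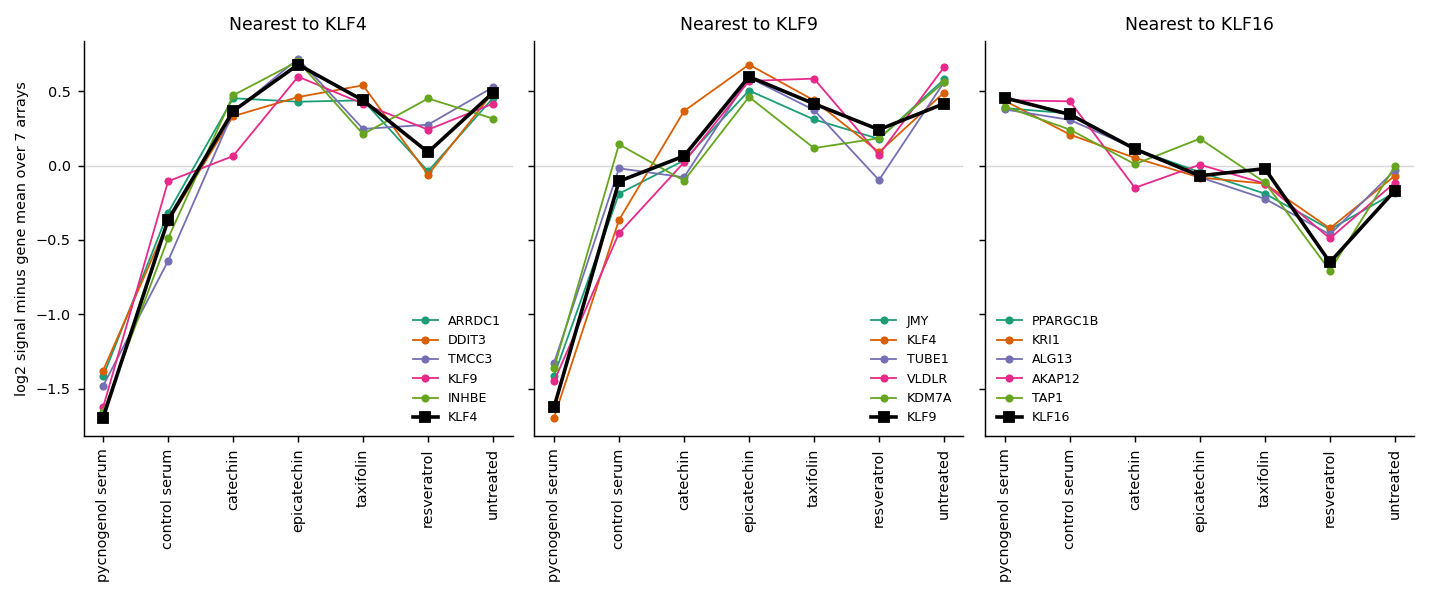
Log2 signal minus the gene's mean over the 7 arrays for KLF4, KLF9 and KLF16 (black squares) and the 5 genes with the nearest profile to each (coloured points); lines only join the points of 1 gene, and the arrays have no order. The KLF4 and KLF9 panels are low with pycnogenol serum, and the KLF16 panel is high on both serum arrays and low with resveratrol.

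Genes around the family were read from lists of names. Of 15 annotated other KLF and SP genes 6 passed the filter, and none of them differed by 2-fold in any of the 3 serum comparisons. SP1, the founding GC-box factor, was the most different, at -0.50 with control serum against untreated and at 0.61 with pycnogenol serum against control serum, which share the control serum array. KLF3, a repressor that recruits CtBP, was at -0.25 between the serum arrays and at -0.52 with pycnogenol serum against untreated. None of 16 cofactors and ubiquitin ligases of the family passed 2-fold, with SIN3A at -0.39 between the serum arrays, EP300 at 0.19 and VHL at -0.15. Of all genes 1.2% passed 2-fold with control serum against untreated, 0.536% between the serum arrays and 2.24% with pycnogenol serum against untreated. Counts of 0 in lists this short are near these shares and are no result about the lists.

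Among 10 genes of the ERK5 and MEF2 route to KLF2 and KLF4, none passed 2-fold with pycnogenol serum against control serum, beside 0.536% of all genes. Of the 10, 8 lay above 0, with a median of 0.15, beside 51.6% of all genes above 0. MEF2C was the exception in size, with 274 in pycnogenol serum and 468 in control serum, a difference of -0.77. The next widest were MAP3K2 at 0.32 and HDAC7 at 0.32. Of 11 glucocorticoid-responsive genes, 1 was lower by 2-fold between the serum arrays, beside 0.314% of all genes, TSC22D3 at -1.50, an anti-inflammatory leucine zipper gene, followed by DUSP1 at -0.91 and ERRFI1 at -0.69. The list's median was -0.058, with 7 members below 0, beside 48.4% of all genes. With control serum against untreated, 6 of these genes lay above 0 and 5 below, none past 2-fold, with a median of 0.019. Of all genes 51.3% lay above 0 there and 1.2% passed 2-fold. The widest were FKBP5 at 0.67, TSC22D3 at 0.43 and SGK1 at 0.34, and KLF9 was at -0.52.

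Of 12 immediate early genes of the serum response, 11 lay below 0 with pycnogenol serum against control serum, with a median of -0.21, beside 48.4% of all genes below 0. By 2-fold 2 were lower, beside 0.314% of all genes. They were EGR1 at -1.44 and ATF3, which lay at the threshold itself with 722 in pycnogenol serum and 1444 in control serum. EGR1 read 175 with pycnogenol serum, under the signal filter of 269. MYC was at -0.54. With control serum against untreated 7 of the 12 lay above 0 and 5 below, with a median of 0.063, beside 51.3% of all genes above 0. None passed 2-fold, beside 1.2% of all genes. The widest were SRF at 0.68, JUNB at 0.46 and IER3 at -0.35. Among 17 described targets of Kruppel-like factors, 12 lay above 0 between the serum arrays, beside 51.6% of all genes. None passed 2-fold there, beside 0.536% of all genes, and the widest differences were VEGFA at -0.56, PDGFA at 0.47 and RELA at 0.44. With control serum against untreated, EDN1, endothelin-1, was higher at 1.85 and HMGCS1, a mevalonate enzyme, lower at -1.74. The summed signal of the fibroblast markers was 100615 to 101236 on the serum arrays and 85566 to 89825 on the other 5, and its part in any of these differences was not tested.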

How the data were processed

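RNA of 7 HT1080 cultures was hybridised to 1 Affymetrix array each. The deposited values are signal intensities per probe set, computed by the authors with MAS5 per the submitters' processing notes; its version and detection calls are not given in the sources used here. Each array's mean, with 2% trimmed from either end, was 1000.1, and array medians ran from 114 to 136. Precision is limited by the 7 arrays, since signals carry no read depth. Of 54675 probe sets, 41097 were assigned to 1 gene by the platform annotation, 1801 to several genes and 11777 had no entry; only the first kind was used. Symbols were checked against RefSeq (GRCh38.p14), which held the gene of 41043 probe sets. Deposited signals under 34.9, the 25th percentile, were raised to it before taking log2. The brightest probe set stood for its gene, and 9888 of 19775 genes at or above the median were compared.

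Groups of 1 array allow no test, so members were counted at 2-fold and set beside all genes. Alternatives were quantile normalization, pairwise loess (span 0.3), median centring, other floors (none, 40th percentile) and filters (none, 75th percentile), other readings of the probe sets, 1.5-fold and 3-fold thresholds, and the mean of the other arrays outside the serum groups as reference. Named genes were the 10 members and the 5 nearest profiles of the 3 most variable members. From each list, genes were named out of the 3 widest differences in each of 2 serum comparisons, and not all of those are given. Members, lists and rule were chosen with earlier results of these data known. Promoters came from RefSeq and were searched for 9 of the 10 members. The promoter of KLF10 was left out of the search. The steps were tested on simulated data and ran in Python 3.11.15 with pandas 2.3.3, numpy 2.4.6 and statsmodels 0.14.6.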

Additional observations from a re-analysis of the deposited data

How the results depend on the processing

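No paired analysis was possible because each group held 1 array. Of 102 counts of members recomputed under the alternatives, 90 stayed within 1.5 times the reported count and 12 did not. The count of 2 between the serum arrays became 0 with the filter at the 75th percentile, which left 3 members, 0 with the mean of all probe sets, 0 without _x_at and _s_at sets, where 6 members remained to be compared and KLF4 and KLF9 could not be read, and 0 at 3-fold. For pycnogenol serum against untreated it became 0 with the filter at the 75th percentile, 1 with the mean of all probe sets, 0 without _x_at and _s_at sets and 4 at 1.5-fold, which added KLF11 and KLF16. At 1.5-fold the counts of 0 became 2 for control serum and 1 for epicatechin, both against untreated. The share of all genes past 1.5-fold was not computed, so the counts at that threshold have nothing to be set beside. The 4 members with both serum arrays outside the range of the others became 0 under the 75th percentile filter and 2 without _x_at and _s_at sets; pairwise loess gives no value there. The direction of the 2 called genes between the serum arrays turned on dim probe sets alone, at 0.58 on KLF4's 220266_s_at and 0.46 on KLF9's 230636_s_at. All 78 recomputed medians, and 654 of 684 recomputed differences of single members, moved by less than the SD of differences over genes. The 684 were on main or averaged probe sets, or on a dimmer set where _s_at sets were dropped, as for KLF2. The other floors and the absence of a filter left every member's value as it was, so part of this agreement was fixed beforehand. Averaging probe sets could move values: between the serum arrays KLF4 went from -1.33 to -0.37 and KLF9 from -1.52 to -0.33. KLF6 hardly moved, from -0.23 to -0.24. On single further probe sets 64 of 160 differences moved by less than that SD.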

Other observations

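KLF15 and the probe sets named here were chosen after their values were seen. Some family members and probe sets below the signal filter showed patterns that the comparisons above do not use, and none of these signals was shown to be above background. KLF9's set 203541_s_at read 166 with catechin, 117 with epicatechin, 81.2 with taxifolin and 77.8 with resveratrol, against 18.5 in the untreated culture, while it read 14.1 with pycnogenol serum and 10.96 with control serum. All 4 compound arrays thus lay above the other 3 on this set, which the brightest KLF9 set did not show. KLF15, which like KLF9 is known as a glucocorticoid-induced gene, read 104 with pycnogenol serum, 141 with control serum, 194 with catechin, 249.5 with epicatechin, 192 with taxifolin, 140 with resveratrol and 234 in the untreated culture, so that pycnogenol serum was the lowest array there too. KLF13's set 230094_at read 16.99 with pycnogenol serum and 150.5 with control serum, a difference of -2.11 at the floor, while its brightest set gave 0.085.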
